A study of Mus musculus with 13 samples.

Results

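The genes described here are 9 components and receptors of the complement system in mouse lung, found in the tables by symbol: C1qa, C1qb, C1qc, C3, C4b, Cfb, Serping1, C3ar1 and C5ar1. All 9 were found among the 20270 genes of the tables, and all 9 were among the 15315 genes that passed the filter on low counts. Lung RNA came from 4 control libraries of wildtype (WT) mice, 5 libraries of WT mice given bleomycin and 4 libraries, also after bleomycin, labelled as a knockout of the cannabinoid receptor CB1R (CB1R KO), whose gene is Cnr1. Per the study's methods, the WT mice were C57BL/6J males, 13 weeks old when bought, and the CB1R KO mice were Cnr1-/- on that background. Control mice received saline, and the other mice received bleomycin, a drug that injures the lung and leaves it fibrotic, as a single oropharyngeal dose of 1 U per kg, 14 days before the lower right lobe was taken. The age of the CB1R KO mice was not given in the sources used here, and the study's methods do not state their sex. Knockout mice not given the drug were not analysed here. Replicate names are the numbers of the labels, so that controls are 3, 21, 24 and 26, WT bleomycin libraries are 4, 2, 5, 4-B2 and 7, and CB1R KO bleomycin libraries are 8, 9, 10 and 11. WT bleomycin libraries 4 and 4-B2 carry the same number, and the labels do not say what B2 means or whether these are separate mice. They are counted as 2 samples here, and with their counts summed as 1 sample, an alternative chosen after the data were seen, 1 of the 9 genes, Serping1, changed its call in any comparison.

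Complement is a cascade of plasma and tissue proteins that marks particles and dying cells for removal. C1q, a complex of the A, B and C chains encoded by C1qa, C1qb and C1qc, recognises targets in the classical pathway, and in tissue it is made mainly by macrophages. C4 and C2 then form the classical C3 convertase, factor B forms that of the alternative pathway, and both cleave C3, the protein on which all routes converge. Cleavage of C3 and C5 releases the anaphylatoxins C3a and C5a, small peptides sensed by the receptors C3aR and C5aR1 on myeloid and other cells.

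Library totals ranged from 14615904 to 16662580 estimated counts in 12 of the 13 libraries, and CB1R KO replicate 11 held 53463884. The median standard error (SE) of a log2 fold change over all genes was 0.11 between WT bleomycin and control and 0.11 between CB1R KO and WT bleomycin. Both CPM and TPM are used below. CPM is the count relative to the library total, scaled by the TMM method, and serves to compare 1 gene between libraries. TPM also divides by transcript length and serves to compare levels between genes. A gene is named as called when its adjusted p in edgeR's quasi-likelihood test, adjusted by the Benjamini-Hochberg method over all genes tested, was under 0.05. Cnr1 was counted in every library, at 2.47 to 5.63 CPM in those labelled CB1R KO, 3.46 to 6.97 CPM in WT bleomycin and 1.62 to 4.1 CPM in control. Its log2 difference between the 2 groups was -0.53 (SE 0.28, adjusted p = 0.367), so the RNA counts did not separate the genotypes, and the region of the gene from which the reads came is not known. The groups are therefore those of the labels. Markers of type II cells summed to between 19360 and 37910 TPM in every library, while 6 hepatocyte markers summed to between 1.04 and 2.99 TPM.

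In the RefSeq gene order of GRCm38.p6, C1qb, C1qc and C1qa lie next to each other on chromosome 4, Cfb is the neighbour of C2 on chromosome 17, and C5ar1 is the neighbour of C5ar2 on chromosome 7. C3 and C4b are on chromosome 17, Serping1 on chromosome 2 and C3ar1 on chromosome 6. C4b has a near-identical copy, C4a, annotated as a transcribed pseudogene on the same chromosome. C4a is not among the genes counted, so reads shared by both copies may be held in the counts of C4b or lost. RefSeq promoter windows, 300 bases each and mostly upstream of the start, were matched for 5 of the 9 genes. The windows of C1qb and C1qc are shown because these neighbouring genes moved together, that of C3 because it carries repeated matches to 1 motif, and that of C3ar1 because it changed more than C5ar1, the other anaphylatoxin receptor. Capitals mark matches on either strand to the motifs searched.
C1qb, chr4:136886151-136886450, minus strand: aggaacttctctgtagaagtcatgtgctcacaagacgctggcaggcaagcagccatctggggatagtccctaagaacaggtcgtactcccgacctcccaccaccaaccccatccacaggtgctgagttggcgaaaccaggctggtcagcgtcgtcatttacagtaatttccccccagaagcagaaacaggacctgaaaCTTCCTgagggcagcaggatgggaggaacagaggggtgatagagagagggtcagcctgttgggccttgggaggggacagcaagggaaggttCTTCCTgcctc
C1qc, chr4:136892865-136893164, minus strand: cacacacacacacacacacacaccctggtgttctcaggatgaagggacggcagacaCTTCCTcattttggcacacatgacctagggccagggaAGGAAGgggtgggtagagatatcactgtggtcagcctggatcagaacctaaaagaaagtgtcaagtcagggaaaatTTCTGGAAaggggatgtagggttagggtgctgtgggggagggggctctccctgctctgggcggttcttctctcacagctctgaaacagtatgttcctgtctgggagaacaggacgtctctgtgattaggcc
C3, chr17:57228087-57228386, minus strand: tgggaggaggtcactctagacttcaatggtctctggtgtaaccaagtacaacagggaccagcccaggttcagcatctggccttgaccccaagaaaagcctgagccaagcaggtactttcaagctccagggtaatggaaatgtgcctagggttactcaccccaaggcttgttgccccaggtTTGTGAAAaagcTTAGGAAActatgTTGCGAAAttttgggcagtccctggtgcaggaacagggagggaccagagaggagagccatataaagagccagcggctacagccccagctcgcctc
C3ar1, chr6:122856108-122856407, minus strand: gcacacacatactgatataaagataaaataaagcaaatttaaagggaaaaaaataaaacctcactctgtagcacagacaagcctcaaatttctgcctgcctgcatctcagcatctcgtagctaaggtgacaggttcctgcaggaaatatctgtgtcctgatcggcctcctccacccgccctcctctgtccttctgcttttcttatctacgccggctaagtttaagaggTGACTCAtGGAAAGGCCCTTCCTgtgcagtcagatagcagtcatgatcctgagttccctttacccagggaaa

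The motifs were C/EBP (TTNNGNAA), ETS (AGGAAG), AP-1 (TGANTCA), GAS (TTCNNNGAA), NF-kB (GGG, any 3 bases, TTCC) and ISRE (GAAA, any 2 bases, GAAA). The C3 window held C/EBP matches at 3 places, starting at bases -70, -58 and -45 from the start, the last of them on both strands, and a C/EBP match is present in 40.7% of the 32851 RefSeq promoter windows. C1qb and C1qc held 2 ETS matches each, a motif present in 35.4% of windows, and C1qc held 1 C/EBP match at -81. C3ar1 held an AP-1 match at -22 (7.81% of windows) and an NF-kB match at -14 (5.56% of windows) that overlaps an ETS match at -5. C5ar1, whose window is not printed, held 3 ETS matches and 1 C/EBP match. No window of the 5 held the GAS letters (8.3% of windows) or the ISRE letters (3.44% of windows). The NF-kB and ISRE results depended on the spelling: with the 9-letter GGGNNTTCC (5.82% of windows) no window of the 5 matched, and with GAAANNGAA (8.56% of windows) C5ar1 did. A match describes the letters in the window only, and binding was not measured.

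Of the 9 genes, the C1q chains showed the largest changes between WT bleomycin and control. In control lungs, C1qa stood at 31.4, 45.8, 35.6 and 35.3 CPM in replicates 3, 21, 24 and 26. In WT lungs after bleomycin it reached 262, 262, 288, 269 and 272 CPM in replicates 4, 2, 5, 4-B2 and 7. All WT bleomycin libraries lay far above all controls, and they lay close together, with a coefficient of variation of 3.25% in TPM against 16.2% in control. The CB1R KO libraries 8, 9, 10 and 11 held 172, 146, 271 and 210 CPM, a wider spread (26.9% in TPM). Replicate 10 lay inside the WT bleomycin range, and the other 3 lay below it and above every control.

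Relative to control, C1qa was 7.3-fold higher after bleomycin in WT lungs (log2 difference 2.87, SE 0.16, adjusted p = 3.22e-08). C1qb, whose chain pairs with the A chain in the complex, rose from 24.9, 40.1, 30.2 and 31.0 CPM in control to 245, 252, 252, 243 and 252 CPM, which was 7.88-fold (log2 2.98, SE 0.16, adjusted p = 2.37e-08). For C1qc, control libraries held 26.3, 40.8, 26.4 and 30.4 CPM and WT bleomycin libraries 198, 204, 214, 185 and 192 CPM, a 6.41-fold difference (log2 2.68, SE 0.15, adjusted p = 4.13e-08). Control replicate 21 had the highest level of each chain among controls, and the groups stayed apart for all 3 chains. Of all genes tested, 25.0% were called higher after bleomycin in WT lungs, 23.9% were called lower, and in 21.5% every WT bleomycin library lay above every control in CPM. Among the 9 complement genes, 8 were called higher, and the same number had no overlap in CPM.

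**Figure D1:**
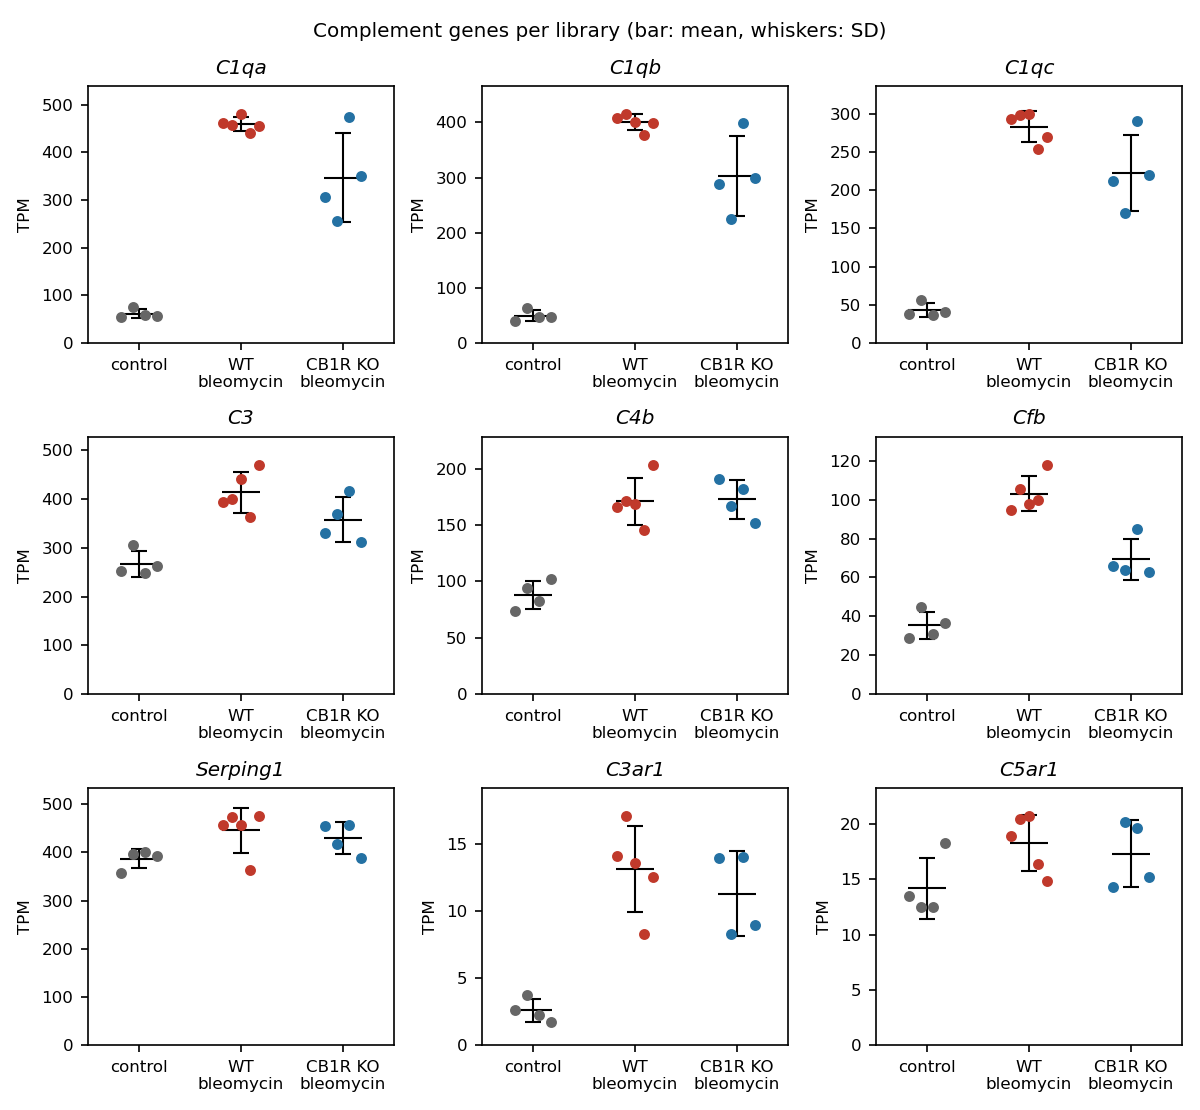
TPM of the 9 complement genes in each library (points) by group, on axes that start at 0, with the mean (bar) and SD (whiskers) of 4 control, 5 WT bleomycin and 4 CB1R KO bleomycin libraries. The C1q chains, C3, C4b and C3ar1 of both bleomycin groups lie above every control, the Cfb levels of the 3 groups do not overlap, and Serping1 lies between 357.5 and 476.4 TPM throughout.

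In lungs labelled CB1R KO and given bleomycin, all C1q chains were well above control. The controls were WT, so drug and genotype cannot be told apart in comparisons of CB1R KO with control. C1qb was 5.84-fold (log2 2.54, SE 0.16, adjusted p = 1.89e-07), C1qa 5.39-fold and C1qc 4.94-fold higher than in control. Against WT bleomycin, C1qb held 171, 136, 241 and 189 CPM in replicates 8, 9, 10 and 11, and C1qc 142, 117, 198 and 156 CPM. Every CB1R KO value of C1qb was below the lowest WT value of 243 in CPM, but in TPM replicate 10 (399) was within the WT range of 377 to 416. The log2 differences were -0.44 (SE 0.14, adjusted p = 0.148) for C1qa, -0.43 (SE 0.14, adjusted p = 0.143) for C1qb and -0.38 (SE 0.14, adjusted p = 0.191) for C1qc, and none was called. Without CB1R KO replicate 10, the highest of its group for each chain, the chains were called. C1qa then differed by -0.62 (adjusted p = 0.0138), C1qb by -0.59 (adjusted p = 0.0219) and C1qc by -0.52 (adjusted p = 0.0369). DESeq2 on these 2 groups called C1qb with all libraries present (-0.43, adjusted p = 0.0345). Of 22 alternatives, 21 left C1qa, 20 left C1qb and 21 left C1qc uncalled. Over these alternatives the log2 differences came as near to 0 as -0.314 for C1qa, -0.312 for C1qb and -0.267 for C1qc.

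The chains kept near-constant proportions within a group. The ratio of C1qa to C1qb in TPM was 1.2 to 1.33 in control, 1.1 to 1.2 in WT bleomycin and 1.06 to 1.19 in CB1R KO libraries. C1qb to C1qc was 1.07 to 1.29 in control, against 1.33 to 1.48 and 1.31 to 1.37 in the 2 bleomycin groups, which do not overlap with control. After removal of the group means from log2 CPM, C1qa correlated with C1qb at r = 0.967 and with C1qc at r = 0.933 over the 13 libraries, and C1qb with C1qc at r = 0.948. These were the closest genes to each chain among all genes tested, followed by Grem1 for C1qa (r = 0.931) and Cdca5 for C1qb (r = 0.927) and C1qc (r = 0.925). The 13 points share their libraries, and CB1R KO replicates 9 and 10 are the lowest and the highest of their group for every chain.

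Markers of monocyte-derived and interstitial macrophages moved in the same direction. All 12 were called higher in WT bleomycin than in control, and their summed level was 222.7 to 299.0 TPM in control, 529.5 to 719.7 in WT bleomycin and 511.8 to 671.4 in CB1R KO lungs. Of 10 alveolar macrophage markers, 2 were called higher, 2 lower and 6 neither in WT bleomycin against control. Their sums overlapped, at 865.1 to 2220 TPM in control and 974.4 to 1519 in WT bleomycin. In these bulk samples, more cells of a type and more RNA per cell cannot be told apart. The summed C1q level was 132 to 196 TPM in control, 1070 to 1180 in WT bleomycin and 651 to 1160 in CB1R KO lungs. Divided by the summed macrophage markers it was 0.458 to 0.655 in control, 1.63 to 2.09 in WT bleomycin and 1.27 to 1.73 in CB1R KO lungs. Single markers of the 12 differed between WT bleomycin and control by log2 0.317 to 3.242, with a median of 1.198. That range holds the log2 differences of the C1q chains (2.68 to 2.98), so the ratio depends on which markers are summed. None of the 12 markers was called between CB1R KO and WT bleomycin by edgeR, 2 had an unadjusted p under 0.05, and their median log2 difference was -0.10. The part of macrophage number in the C1q values was not tested.

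**Figure D2:**
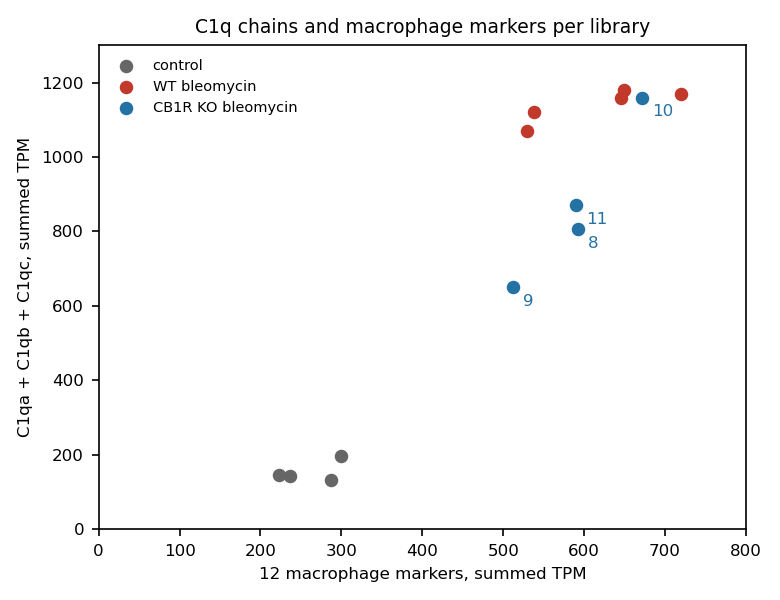
Summed TPM of C1qa, C1qb and C1qc (vertical) against summed TPM of 12 macrophage markers (horizontal), 1 point per library, with CB1R KO libraries numbered. Controls lie at 132 to 196 TPM of C1q and WT bleomycin libraries at 1070 to 1180, and CB1R KO replicate 9 is the lowest of the bleomycin libraries on both axes.

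Cfb encodes factor B, the protease subunit of the alternative C3 convertase, and it was the only one of the 9 genes called when the bleomycin groups were compared with each other. Its CPM was 46.6, 67.6, 47.3 and 60.4 in control replicates 3, 21, 24 and 26. After bleomycin, WT replicates 4, 2, 5, 4-B2 and 7 held 150, 162, 157, 164 and 188 CPM, and CB1R KO replicates 8, 9, 10 and 11 held 93.7, 102, 135 and 94.9 CPM. The 3 groups did not overlap in CPM or in TPM, with the CB1R KO libraries between the others. WT bleomycin lungs were 2.96-fold above control (log2 1.57, SE 0.13, adjusted p = 5.28e-07), and CB1R KO lungs were 1.92-fold above control (log2 0.94, SE 0.14, adjusted p = 0.000125). CB1R KO lungs were 1.55-fold below WT bleomycin (log2 -0.63, SE 0.13, adjusted p = 0.0352). Type II cell markers were higher in CB1R KO than in WT bleomycin lungs, with 8 of 8 above 0 and 4 called. Their sums were 33680, 37910, 24190 and 36500 TPM in CB1R KO replicates 8, 9, 10 and 11 and 19360 to 23090 TPM in WT bleomycin, so that replicate 10, the highest CB1R KO library for Cfb, was the lowest for these markers. Their part in the Cfb difference was not tested.

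Between CB1R KO and WT bleomycin, 0.62% of the genes tested were called lower and 0.979% in either direction, and 17.0% had an unadjusted p under 0.05. Of the 9 complement genes, 1 was called, 5 had an unadjusted p under 0.05, and 9 of 9 log2 differences were below 0, with a median of -0.26 against 0.0 over all genes. Every CB1R KO library lay below every WT bleomycin library in CPM for Cfb and C1qb, and for 3.12% of all genes. The Cfb call depended on single libraries: without WT bleomycin replicate 2, 5, 4-B2 or 7, or without CB1R KO replicate 8, 9 or 11, its adjusted p lay between 0.0657 and 0.128, with log2 differences of -0.642 to -0.572, and it kept the call without WT replicate 4 (adjusted p = 0.0327) or CB1R KO replicate 10 (adjusted p = 0.00435) and with WT replicates 4 and 4-B2 summed (adjusted p = 0.0434). The labels of 3 libraries are spelt with a capital letter and include no CB1R KO library. With the spelling as a batch term the log2 difference was -0.56 (adjusted p = 0.103), and within the libraries labelled in lower case it was -0.56 (adjusted p = 0.231).

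C2, the classical pathway protease encoded beside Cfb and close to it in function, did not follow it. C2 stood at 26.6 ± 4.25 TPM in control, 25.8 ± 3.69 in WT bleomycin and 26.1 ± 0.862 in CB1R KO lungs (SD, n = 4, 5 and 4), and no comparison called it. The ratio of Cfb to C2 in TPM was 1.15 to 1.58 in control, 3.78 to 4.82 in WT bleomycin and 2.35 to 3.36 in CB1R KO libraries, without overlap. The genes whose deviations were most like those of Cfb were Mpp6 (r = 0.893), Sox9 (r = 0.879) and Glb1 (r = 0.866), and C3 had Cfb among its closest 3 (r = 0.865).

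**Figure D3:**
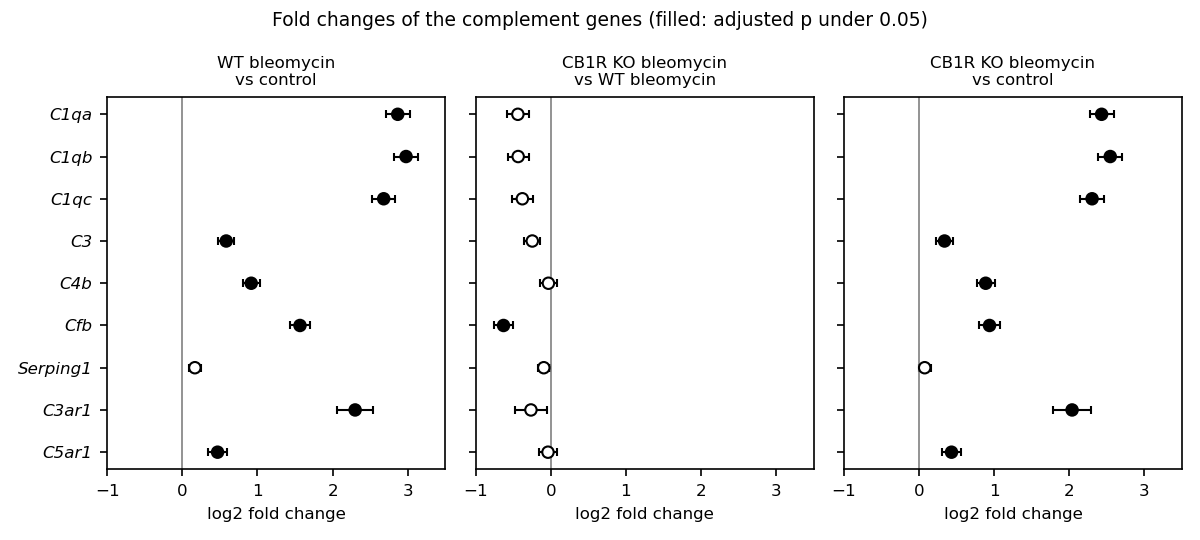
Log2 fold change (points) with SE (bars) of the 9 complement genes in 3 comparisons, filled where edgeR's adjusted p was under 0.05. The panels share 1 horizontal scale, and Cfb at -0.63 is the only filled point between CB1R KO and WT bleomycin.

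C3, which the convertases cleave, and C4b, whose product helps form the classical one, were already abundant in control lungs and rose less. C3 held 862, 1073, 855 and 946 CPM in control replicates 3, 21, 24 and 26, and 1264, 1335, 1501, 1290 and 1611 CPM in WT bleomycin replicates 4, 2, 5, 4-B2 and 7. These groups did not overlap, and the difference was 1.5-fold (log2 0.58, SE 0.11, adjusted p = 0.000371). CB1R KO replicates 8, 9, 10 and 11 held 1065, 1229, 1385 and 1047 CPM, of which 3 lay below every WT bleomycin library in CPM and 2 did so in TPM. C3 was called higher in CB1R KO lungs than in control (log2 0.34, SE 0.11, adjusted p = 0.0264), with overlap in CPM but not in TPM. The call was lost without control replicate 3, 24 or 26 or CB1R KO replicate 9 or 10 (adjusted p of 0.0506 to 0.0846). Against WT bleomycin its log2 difference was -0.25 (SE 0.10, adjusted p = 0.247).

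C4b rose from 266, 351, 307 and 389 CPM in control to 579, 603, 616, 549 and 750 CPM in WT bleomycin lungs, a 1.89-fold difference without overlap (log2 0.92, SE 0.12, adjusted p = 1.71e-05). In CB1R KO lungs it held 662, 590, 639 and 535 CPM, 1.85-fold above control (adjusted p = 7.59e-05). The 2 bleomycin groups overlapped, and the interval of their log2 difference was -0.25 to 0.19 around -0.03 (adjusted p = 0.916). That difference turned positive without WT replicate 7 (0.049) and without CB1R KO replicate 11 (0.029). The ratio of C3 to C4b in TPM was 2.57 to 3.45 in control, 2.31 to 2.62 in WT bleomycin and 1.73 to 2.29 in CB1R KO lungs. C4b deviated together with Serping1 among the complement genes (r = 0.792).

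Serping1 encodes C1 inhibitor, which blocks the proteases of the C1 complex, and was the 1 gene of the 9 called in no comparison with all libraries kept as separate samples. It held 391, 446, 449.7 and 453 CPM in control, 483, 505, 507, 414 and 531 CPM in WT bleomycin, and 475, 448, 487 and 422 CPM in CB1R KO lungs. The groups overlapped, although 4 of 5 WT bleomycin libraries lay above every control. The log2 difference of WT bleomycin from control was 0.17 (SE 0.08, adjusted p = 0.0858), and without WT replicate 4-B2 it was 0.22 and called (adjusted p = 0.0165). With replicates 4 and 4-B2 summed it was 0.20 and called as well (adjusted p = 0.0405). Its intervals reached 0.318 between WT bleomycin and control and -0.242 between CB1R KO and WT bleomycin.

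The anaphylatoxin receptors differed in the size of their change. C3ar1, the receptor of C3a, held 7.51, 11.1, 6.5 and 5.28 CPM in control replicates 3, 21, 24 and 26 and 39.0, 47.9, 39.4, 24.7 and 36.7 CPM in WT bleomycin replicates 4, 2, 5, 4-B2 and 7. The groups did not overlap, and C3ar1 was 4.92-fold higher in WT bleomycin lungs (log2 2.30, SE 0.24, adjusted p = 3.67e-06). CB1R KO replicates held 38.4, 23.2, 39.2 and 25.1 CPM, 4.1-fold above control (adjusted p = 3.42e-05). Against WT bleomycin the log2 difference was -0.26 (SE 0.22, adjusted p = 0.568), with an interval of -0.684 to 0.158.

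C5ar1, the receptor of C5a, held 18.8, 16.6, 15.7 and 23.4 CPM in control, 25.3, 25.8, 26.5, 27.5 and 24.1 CPM in WT bleomycin, and 20.9, 25.3, 30.5 and 24.1 CPM in CB1R KO lungs. WT bleomycin libraries all lay above control in CPM, by a narrow margin over control replicate 26, and 3 of 5 did so in TPM. The WT bleomycin level was 1.38-fold that of control (log2 0.47, SE 0.12, adjusted p = 0.00558), a call that limma on log2 TPM did not make (0.35, adjusted p = 0.0539 with a pseudocount of 1). CB1R KO lungs were 1.35-fold above control (adjusted p = 0.0168), and the call was lost without control replicate 21 or 24 or CB1R KO replicate 10 (adjusted p of 0.0514 to 0.0566) and with limma (adjusted p = 0.174). Against WT bleomycin the log2 difference was -0.04, with an interval of -0.27 to 0.198. The ratio of C3ar1 to C5ar1 in TPM was 0.0955 to 0.3 in control and 0.503 to 0.846 in WT bleomycin lungs. Neutrophil markers, cells in which C5ar1 is abundant, went the other way: 5 of 7 tested were called lower in WT bleomycin, with sums of 315.3 to 1719 TPM in control and 202.8 to 410.1 in WT bleomycin, and their part in the C5ar1 level was not tested.

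Between CB1R KO bleomycin and control, 19.0% of the genes tested were called higher, 16.3% were called lower, and in 17.7% every CB1R KO library lay above every control in CPM. Of the 9 complement genes, 8 were called higher and 6 had no overlap in CPM, the exceptions being C3, Serping1 and C5ar1. Both bleomycin groups were compared with the same 4 WT controls, so the CB1R KO comparison differs in genotype as well as drug. Over the 9 genes the median log2 difference from control was 1.57 in WT bleomycin and 0.94 in CB1R KO lungs, against -0.01 over all genes in both comparisons.

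The order of the levels changed between groups. In control lungs Serping1 was the highest at 387 ± 19.8 TPM (SD, n = 4), followed by C3 at 267 ± 26.6 and C4b at 88.1 ± 12.5. C1qa (61.6 ± 9.94), C1qb (49.6 ± 9.63), C1qc (43.1 ± 9.29) and Cfb (35.3 ± 7.03) came next, each overlapping its neighbour, and C5ar1 (14.2 ± 2.76) and C3ar1 (2.58 ± 0.864) were lowest. In WT bleomycin lungs C1qa at 459.5 ± 14.9 TPM (SD, n = 5), Serping1 at 445 ± 46.6, C3 at 414 ± 42.5 and C1qb at 400.1 ± 14.5 stood at the top. Each of these ranges overlapped the next, but those of C1qa and C1qb did not overlap each other. C1qc (283 ± 20.1), C4b (171 ± 20.9) and Cfb (103 ± 9.20) followed without overlap, and the ranges of C5ar1 (18.3 ± 2.58) and C3ar1 (13.1 ± 3.21) met. In CB1R KO lungs the order was Serping1 at 429 ± 33.0 TPM (SD, n = 4), C3 at 357.5 ± 46.0, C1qa at 347 ± 93.3, C1qb at 303 ± 72.3, C1qc at 223 ± 49.8 and C4b at 173 ± 17.3, with each range meeting the next. Cfb (69.3 ± 10.4), C5ar1 (17.3 ± 3.01) and C3ar1 (11.3 ± 3.15) stood apart below them.

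Single CB1R KO libraries differed in how many of the 9 genes fell below the whole WT bleomycin range in CPM. Replicates 8 and 9 had 6 such genes each and replicate 11 had 7, while replicate 10 had 2, C1qb and Cfb, and was above the WT range for C5ar1. The C1q chains, C3 and Cfb made up most of these, and C4b was below only in replicate 11.

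The rest of the pathway was read from 45 other complement genes found by symbol, of which 36 passed the filter. Of 15 classical and lectin initiators listed 14 were found, and of 7 listed for C5 and the terminal components 6 were found. Between WT bleomycin and control 13 were called higher, 8 lower and 15 neither, with a median log2 difference of 0.23, beside 25.0% of all genes called higher and 23.9% called lower. Among activators and initiators, properdin (Cfp), which stabilises the alternative convertase, rose from 20.03 ± 3.84 to 50.5 ± 6.72 TPM (log2 1.30, SE 0.15, adjusted p = 1.13e-05). The C1 proteases C1ra (log2 0.35, adjusted p = 0.00755) and C1s1 (log2 0.25, adjusted p = 0.0145) and the lectin Fcna (log2 1.42, adjusted p = 0.0123) were higher, and the lectin Mbl1 was lower (log2 -0.99, adjusted p = 0.0371). C1s2 was called higher at levels of at most 0.759 TPM. Hc, the gene of C5, fell from 150 ± 23.8 to 95.0 ± 29.9 TPM (log2 -0.72, SE 0.20, adjusted p = 0.0078), and C7 of the terminal pathway was lower as well (log2 -0.61, adjusted p = 0.00232). In the same comparison 6 of 8 type II cell markers were called lower, with sums of 32280 to 37810 TPM in control and 19360 to 23090 in WT bleomycin, and their part in the Hc value was not tested.

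Regulators went in both directions, with 4 of 12 called higher and 4 lower, beside 25.0% and 23.9% of all genes. Clusterin (Clu), a fluid-phase inhibitor of the terminal complex, rose from 212 ± 16.1 to 501 ± 45.6 TPM (log2 1.27, SE 0.09, adjusted p = 2.09e-07), and factor I (Cfi), the protease that inactivates C3b, rose from 0.866 ± 0.421 to 3.94 ± 0.978 TPM (log2 2.55, SE 0.32, adjusted p = 1.57e-05). Susd4 (log2 0.39, adjusted p = 0.00814) was higher, as was Csmd1 (log2 3.66, SE 0.57, adjusted p = 0.000115), at levels of at most 0.743 TPM. Vitronectin (Vtn) fell from 19.9 ± 1.30 to 8.53 ± 1.21 TPM (log2 -1.25, SE 0.12, adjusted p = 1.93e-06) and the cofactor Cd46 from 3.86 ± 0.33 to 1.95 ± 0.317 TPM (log2 -1.02, SE 0.12, adjusted p = 1.31e-05). Cr1l, the rodent membrane regulator Crry, was lower by less (log2 -0.17, adjusted p = 0.0191).

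Of 8 other receptors and C1q-binding proteins, 4 were called higher and 1 lower, beside 25.0% and 23.9% of all genes. Itgax (log2 1.14, SE 0.12, adjusted p = 3.07e-06) and Itgb2 (log2 0.92, SE 0.12, adjusted p = 3.79e-05), the subunits of complement receptor CR4, rose in every WT bleomycin library above control, and Itgam, which pairs with Itgb2 in CR3, had a log2 difference of 0.34 (adjusted p = 0.178). Vsig4, a macrophage receptor of C3b, rose from 0.299 ± 0.192 to 1.90 ± 0.597 TPM (log2 2.61, SE 0.56, adjusted p = 0.00148). C1qbp was higher (log2 0.33, adjusted p = 0.0157) and Cd93, an endothelial and myeloid surface protein, was lower (log2 -0.30, adjusted p = 0.0261). All 6 endothelial markers were called lower in the same comparison, with sums of 2008 to 2560 TPM in control and 1404 to 1705 in WT bleomycin, and their part in the Cd93 value was not tested. C5ar2, beside C5ar1, had a log2 difference of 0.13 (adjusted p = 0.611).

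**Figure D4:**
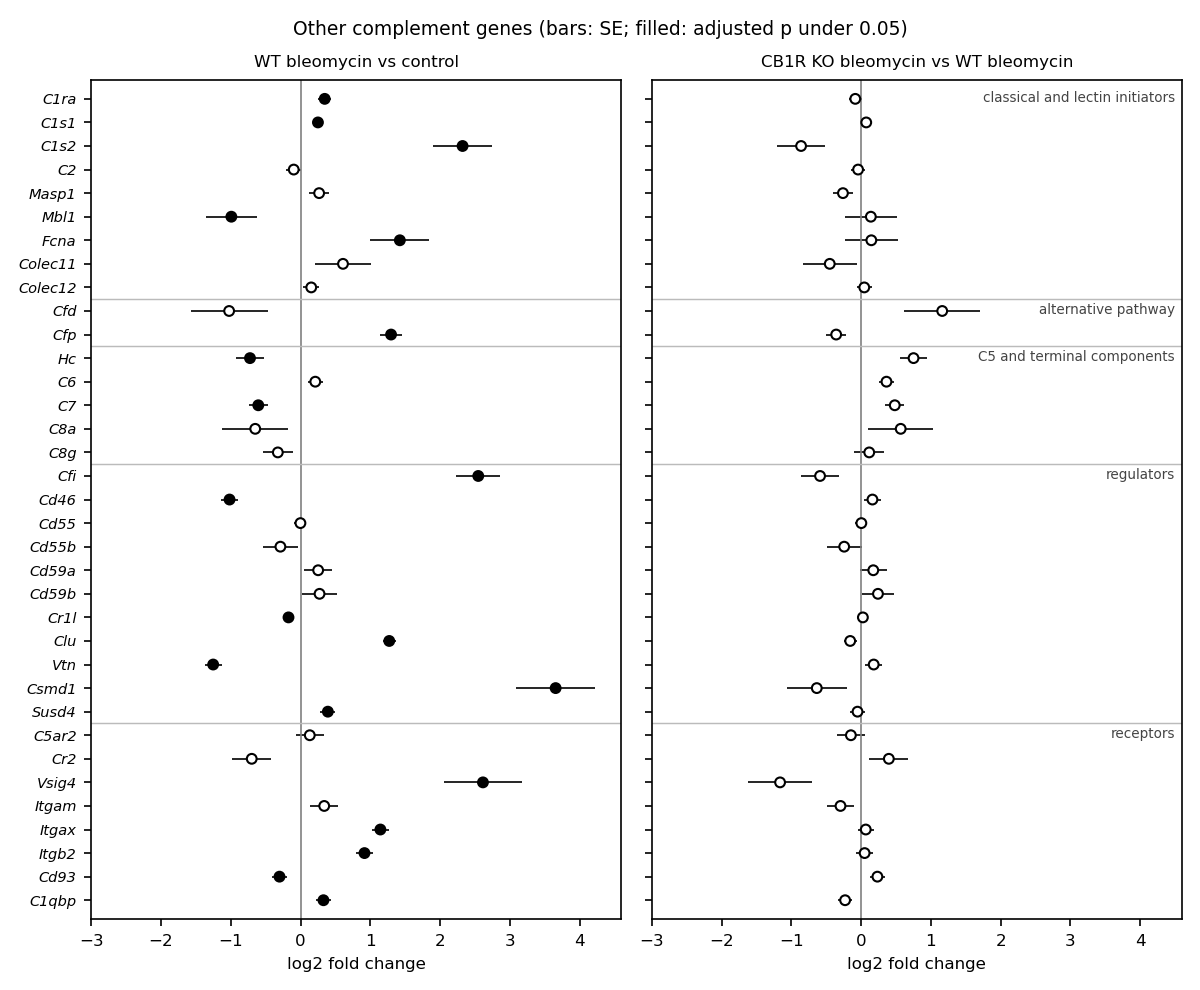
Log2 fold change (points) with SE (bars) of 35 of the other complement genes tested, by role, filled where edgeR's adjusted p was under 0.05. Between WT bleomycin and control 13 genes are filled on the right of 0 and 7 on the left, and between CB1R KO and WT bleomycin no point is filled.

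Between CB1R KO and WT bleomycin edgeR called 0 of these 36 genes, beside 0.979% of all genes tested. An unadjusted p under 0.05 was found for 9 of the 36, beside 17.0% of all genes. The median log2 difference of the 36 was 0.04. DESeq2 on all libraries called 3 of them: Hc (0.76, adjusted p = 0.00789), C7 (0.48, adjusted p = 0.024) and C6 (0.37, adjusted p = 0.034), all higher in CB1R KO. With edgeR their log2 differences were 0.75 (SE 0.20, adjusted p = 0.0805), 0.48 (SE 0.14, adjusted p = 0.105) and 0.36 (SE 0.10, adjusted p = 0.10), and all 3 were called without CB1R KO replicate 10. Hc stood at 167 TPM on average in CB1R KO lungs, 95.0 in WT bleomycin and 149.9 in control. The type II cell markers given beside Cfb moved the same way, and their part in this difference was not tested. Between CB1R KO bleomycin and control 11 of the 36 were called higher and 2, Cd46 and Vtn, lower. Over all genes 19.0% were called higher and 16.3% lower in that comparison. C6 was called in that comparison only (log2 0.58, SE 0.11, adjusted p = 0.00111).

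Cfd, the gene of adipsin, which cleaves factor B, was called in no comparison and varied widely within each group. It ranged from 36.3 to 187.5 TPM in control, 15.8 to 113 in WT bleomycin and 45.6 to 197 in CB1R KO lungs. Adipocytes express it strongly, and the summed adipocyte markers ranged from 31.3 to 103.5, 8.62 to 37.1 and 16.4 to 69.1 TPM in the same groups. The part of adipose tissue in the Cfd values was not tested.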

How the data were processed

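Poly(A) RNA of the lower right lung lobe was sequenced in 13 libraries by the authors as paired-end Illumina reads from NEBNext Ultra II libraries. The authors quantified reads with Kallisto on the Ensembl release 105 mouse reference (GRCm39 in the submitters' processing notes) and summed protein-coding transcripts per gene symbol. The deposited tables hold estimated counts, which are not normalized, and TPM for 20270 genes. Values in the 13 single-sample tables were identical to these. In the TPM table, 1 column matched no sample and was not used.

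Groups follow the genotype and treatment that the labels give. The labels number the samples but do not state that each is a separate mouse, so p-values measure the spread between these samples. Estimated counts were rounded, filtered with filterByExpr (15315 genes left) and fitted together for all 13 libraries with edgeR 4.0.16 (R 4.3.3) after TMM scaling, with 1 coefficient per group. The quasi-likelihood test was adjusted by Benjamini-Hochberg over all genes tested, at 0.05. SEs are the log2 fold change divided by the square root of F, and intervals are 1.96 SE on either side. The test was checked on simulated data. Library totals, from 14615904 counts, bear on the counting error, and the SEs carry the spread between samples besides that error.

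The 9 genes, the complement list and the marker lists were chosen with earlier results of these data known. Other complement genes were named where any comparison called them. Of the genes this rule selects, 1 is counted but not reported here. C2, Cfd, C5ar2 and Itgam were named after their values were seen. Likeness was the Pearson correlation of deviations of log2 CPM (prior count 2) from the group mean. Alternatives were DESeq2 1.42.0, limma 3.58.1 on log2 TPM with a pseudocount of 1 or 0.1, other filters and normalizations, 2-group fits, the spelling of the labels, thinning of CB1R KO replicate 11, each library left out and, chosen after the data were seen, WT replicates 4 and 4-B2 summed and shorter spellings of the NF-kB and ISRE motifs. Promoters came from a RefSeq table of GRCm38.p6. Tables were made in Python 3.11.15 (pandas 2.3.3 and numpy 2.4.6), and plots with matplotlib 3.10.9.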

Additional observations from a re-analysis of the deposited data

Results flagged for a closer look

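Among 27 sets of values (9 genes in 3 groups) checked for a single library standing apart, 1 was found. Chance flags about 1 in 20 such sets, so 1 flag among 27 is near that rate. Serping1 was lowest in control replicate 3, at 391 CPM against 446 to 453 CPM in the other controls, a gap of 0.893 of the range of the group.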

How the results depend on the processing

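Over 26 settings, 549 of 585 alternative fold changes kept their direction and their side of the threshold, 22 lost a call, 6 gained one and 8 changed sign. The calls between WT bleomycin and control stayed at 7 to 9 of the 9 genes and those between CB1R KO and control at 6 to 8. Between CB1R KO and WT bleomycin the count of 1 was 2 with DESeq2 on the 2 groups, 0 with limma at a pseudocount of 0.1, 0 with the label spelling as a batch term, 0 in libraries with lower-case labels, and 0 to 4 when 1 library was left out (4 without CB1R KO replicate 10, 0 without CB1R KO replicate 8, 9 or 11 or WT replicate 2, 5, 4-B2 or 7). Over all genes that comparison called 150, against 644 with DESeq2, 88 with edgeR on 2 groups, 93 with limma at a pseudocount of 0.1, 41 with the spelling term, 6 with lower-case labels and 1 to 653 with 1 library left out. C4b between CB1R KO and WT bleomycin turned positive with limma (0.018 at both pseudocounts), the spelling term (0.051), lower-case labels (0.016), without WT replicate 7 (0.049) and without CB1R KO replicate 11 (0.029), and ranged from -0.074 to 0.049 with 1 library left out. C5ar1 did so with the spelling term (0.031) and without CB1R KO replicate 8 (0.041), with a range of -0.137 to 0.041 when 1 library was left out. The cause was not tested. Counts of C4a and C4b could not be summed, since C4a is not among the genes counted. No paired analysis was possible because the groups share no replicate numbers.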
